A study of Arabidopsis thaliana with 116 samples.

Results

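AT1G47400 is a nuclear gene on chromosome 1 that encodes a short iron-responsive peptide. It is 1 of 13286 genes that had a named probe set among the 22810 of the array, and it was read from the only probe set annotated to it. It was followed over all 116 lines, together with 25 named genes that were chosen by the correlation of their values with its own. The material was developing seed of Arabidopsis thaliana recombinant inbred lines, bred from Col-0 and C24 crossed in both directions. Such lines are inbred until they are largely homozygous, each a fixed mosaic of both parental genomes, so a locus that differs between the parents splits the lines into groups. The 59 lines named with Q and the 57 lines named with R shared growth conditions, stage and tissue, and carried no treatment or transgene in the labels. The labels did not say which letter stands for which direction of the cross. Per the labels, seeds were dissected at 10 to 11 days from the opening of the flower. Each line gave 1 pool, from 6 plants with 8 siliques apiece, and 1 Affymetrix array. A value is therefore the level of a pool, and differences between lines include any variation that was not genetic.

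AT1G47400 belongs to the IRON MAN family of peptides, also called FEP peptides. These peptides accumulate when leaves and roots run short of iron, mainly in the vascular tissue. They bind BRUTUS-type E3 ubiquitin ligases, which otherwise mark bHLH transcription factors of the iron response for degradation, and so keep the genes for iron uptake and transport switched on. Developing seeds receive their iron through the phloem of the mother plant and store it in vacuoles and in ferritin. The close relatives AT1G47395, the neighbouring gene in the annotation, and AT2G30766 had no named probe set and were not analysed here. Whether their transcripts add to the AT1G47400 probe set was not tested.

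The array signals had been normalised by the authors with RMA and are on a log2 scale, so a difference of 1 is a doubling of signal. Pairs of arrays correlated with a median r of 0.986 and a lowest r of 0.959. Of the 22746 probe sets tested, 13436 could be tied to 1 gene of the annotation, and the rest were counted without names. The oleosin gene OLEO3 and the vicilin-like gene PAP85, which mark the filling embryo, averaged 13.25 ± 0.101 and 13.30 ± 0.101 log2 (SD, n = 116 lines). The endosperm genes AGL62 and IKU2 averaged 3.24 ± 0.0899 and 4.35 ± 0.136, both under 5 log2, where differences are compressed, so they tell little about endosperm. The seed coat genes BAN and DFR averaged 8.68 ± 0.415 and 7.91 ± 0.442. None of the 7 phloem genes or of the 4 fruit wall genes listed had a named probe set, so vascular tissue and silique wall in the samples were not assessed. In pooled seeds, fewer cells of a type and less RNA per cell cannot be told apart.

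Signal for AT1G47400 varied more between lines than that of nearly all other probe sets. It ranged from 4.24 log2 in line R034 to 9.41 log2 in line Q213, a 36.2-fold span, with a median of 6.42 and a mean of 6.43 ± 1.33 (SD, n = 116). That SD ranked 51 among 22746 probe sets and 12 among the 22521 whose values were not split into separate modes, while the median SD of all probe sets was 0.169. Values formed a broad spread without a gap. There were 17 lines at 8 log2 or more, 21 lines at 5 log2 or less, and 19 lines between 6 and 7 log2. A model with 2 normal components of equal SD placed them at 7.55 and 5.36, which is 2.98 SD apart and short of the 4 SD required here to call a probe set bimodal. The wide range belongs to what brought the gene forward, so it is given as a description and was not tested.

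The 5 highest lines were Q213 (9.41), Q007 (9.23), R009 (8.91), R111 (8.73) and R205 (8.71). The 5 lowest were R034 (4.24), Q072 (4.28), R197 (4.29), Q047 (4.36) and Q218 (4.41). Both letters were present at both ends of the range. With 1 array per line, no single line's value has an error of its own.

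The labels group the lines only by letter, and the first comparison asks whether AT1G47400 followed it. It did not differ detectably. Signal ran from 4.28 to 9.41 log2 with a median of 6.61 in Q lines, and from 4.24 to 8.91 with a median of 6.28 in R lines. The ranges overlapped almost completely. The mean was 6.44 ± 1.34 (SD, n = 59) for Q and 6.42 ± 1.32 (SD, n = 57) for R. Q minus R came to 0.014 ± 0.244 log2 (SE; limma, adjusted p = 0.984). In the same fit 3.07% of all probe sets passed the threshold of 0.05 on adjusted p, 1.83% higher and 1.24% lower in Q lines. None of the 25 correlated genes described below passed it, and neither did any of 20 other iron and metal genes (limma). An unadjusted limma p under 0.05 was reached by 3 of the 20, and by 4229 of all 22746 probe sets.

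The study was built to find loci that move with transcript levels. Genotypes of the lines were not among the files. In their place stood 124 nuclear marker genes whose signals fell into a clear upper and a clear lower mode. Each mode was taken to follow the locus of the marker's own gene, which was not tested. Each marker was tested as a term beside the letter, with p-values adjusted over all probe sets and all markers together. No mode was assigned to a parent. At least 1 marker was called for 67.6% of all probe sets, so a call for AT1G47400 does not by itself set it apart.

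The strongest association of AT1G47400 was with a marker on another chromosome, AT4G02540 near the start of chromosome 4. In the 41 lines with the upper mode of that marker, AT1G47400 ran from 4.28 to 9.41 log2 with a median of 7.45. In the 75 lines with the lower mode it ran from 4.24 to 9.23 with a median of 5.78. The groups overlapped over most of the range but were shifted, and 4 upper mode lines lay below the lower mode median while 6 lower mode lines lay above the upper mode median. Of the 20 lines with most AT1G47400 signal 16 had the upper mode, and of the 20 with least signal 2 did. Means were 7.34 ± 1.15 in upper mode lines and 5.94 ± 1.15 in lower mode lines (SD, n = 41 and 75). The fitted upper minus lower difference was 1.42 ± 0.221 log2 (SE; limma, adjusted p = 5.63e-07), or 2.67-fold. The marker accounted for 26.1% of the variance that remained after the letter.

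The upper mode lines were higher on average in both letters. AT1G47400 averaged 7.26 ± 1.27 and 6.08 ± 1.22 log2 in the upper and lower mode among Q lines (SD, n = 18 and 41), and 7.40 ± 1.07 and 5.76 ± 1.04 among R lines (n = 23 and 34). The interaction of marker and letter was -0.46 ± 0.443 log2 (SE; limma, adjusted p = 0.999). No probe set passed that interaction test (0.0% of 22745; 710 at unadjusted p under 0.05). RNA quality also moved with the marker: on the 3 control transcripts, 3' probe sets exceeded 5' ones by 0.956 ± 0.268 log2 in upper mode lines and 1.11 ± 0.269 in lower mode lines (SD, n = 41 and 75). With that measure as a covariate the effect was 1.42 log2, as large as without it. With 10 principal components of all probe sets as covariates the effect was 0.069 log2 and the call was lost. Those components held 64.1% of the variance of the marker score itself.

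Other markers on chromosome 4 were called as well. AT4G04180, which differed from AT4G02540 in 5.17% of lines, had an effect of -1.23 ± 0.228 log2 (SE; limma, adjusted p = 3.93e-05), its modes running the other way round. AT4G10030 had 0.77 ± 0.237 (adjusted p = 0.0353) and AT4G29700 had -0.92 ± 0.284 (adjusted p = 0.0361). AT4G10030 differed from AT4G02540 in 27.6% of 116 lines. AT4G29700 differed from it in 43.9% of 107 lines, not far from an even split. With AT4G02540 in the model none of these was called, and the effects were 0.07 ± 0.478, 0.23 ± 0.236 and -0.50 ± 0.263. Without AT4G02540 in the model, AT4G29200 and AT4G31000, the markers on either side of AT4G29700, had 0.41 ± 0.249 and 0.33 ± 0.258. Neither was called (limma, adjusted p = 0.427 and 0.569). AT4G29700 had its upper mode in 30 lines and its lower mode in 86.

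**Figure D1:**
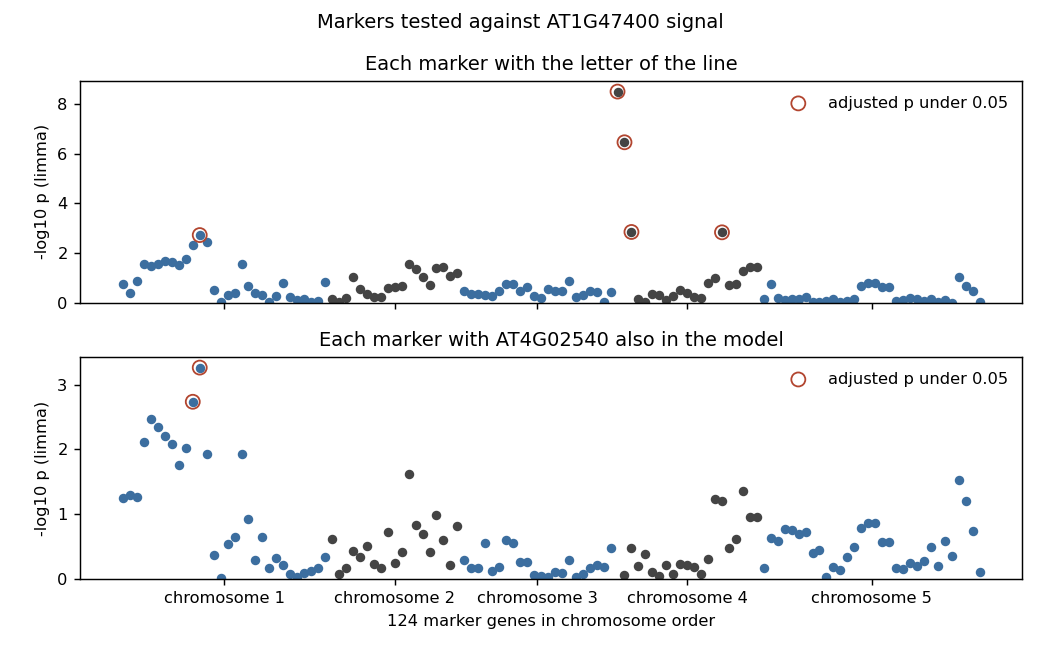
Each point is 1 of 124 marker genes in chromosome order, and the vertical axis is -log10 of the unadjusted limma p for AT1G47400; circles mark an adjusted p under 0.05. The upper panel has its peak at AT4G02540 on chromosome 4 with 5 markers called in all, and the lower panel, with AT4G02540 in the model, has 2 called markers, both on chromosome 1.

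A further region was called once AT4G02540 was in the model. AT1G23960 on chromosome 1 then had an effect of 0.72 ± 0.202 log2 (SE; limma, adjusted p = 0.0179), and AT1G22340 (UGT85A7), which differed from it in 5.45% of lines, had -0.67 ± 0.21 (adjusted p = 0.0429). A further marker was called in this model for 64.2% of all probe sets. AT1G23960 without AT4G02540 in the model had an effect of 0.75 ± 0.236 (adjusted p = 0.0431). In its upper mode (54 lines) AT1G47400 averaged 6.83 ± 1.28 log2 and in its lower mode (62 lines) 6.08 ± 1.27 (SD). The call was lost on rank-based normal scores (0.53 score units, adjusted p = 0.0709) and with 10 principal components as covariates (0.62 log2, adjusted p = 0.325). AT4G02540 and AT1G23960 differed in 47.4% of lines, close to an even split.

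Together both markers accounted for 33.4% of the variance after the letter. The 20 lines with the upper mode of both ran from 4.98 to 8.73 log2 with a median of 7.77. The 21 lines with the upper mode of AT4G02540 alone had a median of 7.27, and the 34 with the upper mode of AT1G23960 alone had a median of 6.47. The 41 lines with neither ran from 4.24 to 7.60 with a median of 5.29. The medians thus stepped down with the number of upper modes, while every pair of classes overlapped. The residual SD with both markers and the letter in the model was 1.10 log2.

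**Figure D2:**
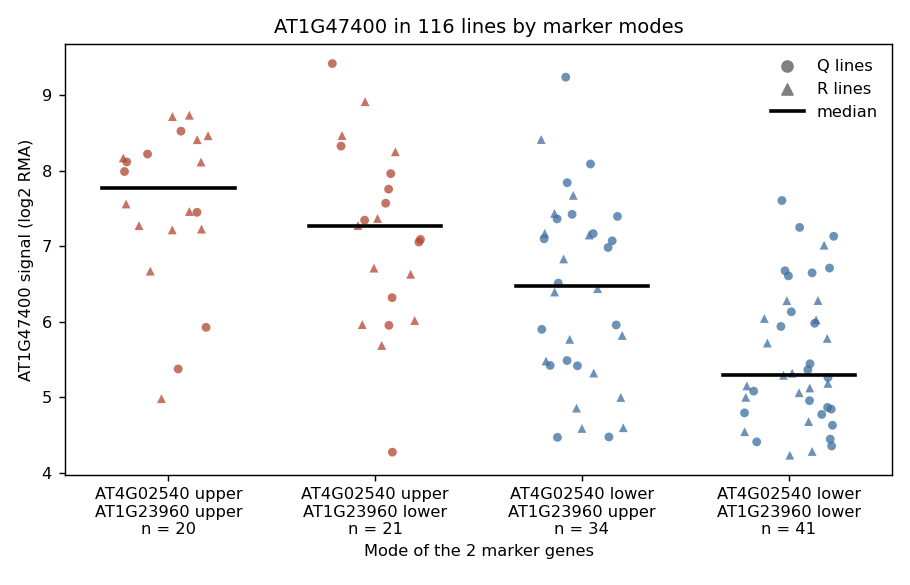
Each point is the AT1G47400 signal (log2) of 1 line, a circle for Q and a triangle for R, in 4 classes by the modes of AT4G02540 and AT1G23960; bars are class medians. The medians are 7.77, 7.27, 6.47 and 5.29 from left to right, and single lines of each class reach far into the others.

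No marker near the gene itself was called. The nearest markers are AT1G34570, which lies 1001 places before AT1G47400 in the annotated gene order, and AT1G48580, which lies 182 places after it. They differed from each other in 16.7% of lines. AT1G34570 had an effect of 0.03 log2 with a 95% interval from -0.46 to 0.53 (limma, adjusted p = 0.97), and AT1G48580 had 0.18 with an interval from -0.32 to 0.67 (adjusted p = 0.794). A difference of the size seen at AT4G02540 lies outside both intervals, whereas differences up to 0.53 and 0.67 lie within them. The intervals hold for the contrasts at these markers. An effect at AT1G47400 would be diluted there by recombination between gene and marker, so its size was not bounded. The next markers beyond AT1G48580 were not called either. AT1G49750 had 0.22 with an interval from -0.28 to 0.71 (limma, adjusted p = 0.737). AT1G50290 had -0.54 with an interval from -1.03 to -0.06 (adjusted p = 0.227), which leaves out 0 before adjustment. AT1G23960 lies 2372 places from AT1G47400 on the same chromosome and differed from AT1G48580 in 37.1% of lines.

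The genes whose values were most like those of AT1G47400 were found by Pearson correlation over the 116 lines. These correlations define the group, so they are described without a test. They share arrays, seed pools and RNA quality. Over all 22746 probe sets the median r was -0.05 and the median absolute r was 0.127. Probe sets with an absolute r of at least 0.5 numbered 92, of which 56 were positive and 36 negative, and 53 of them could not be tied to a single gene here. Among these were the highest values, 0.84 and 0.79, and the lowest, -0.73. The 15 named genes of highest r ended with AT4G01910 (0.509), just ahead of AT2G33255 (0.508) outside the group. The 10 of lowest r ended with SAPX (-0.539), next to AT3G62960 (-0.538) outside it.

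Of the 4 measured genes listed as responsive to iron deficiency, AT5G05250 and AT3G56360 were among the 15; the list was drawn up with earlier results of these data known. AT5G05250, a gene of unknown function on that list, had the highest r of any named gene, 0.74 (Spearman rho 0.74). Its signal ran from 6.70 to 9.15 log2 with a median of 7.83. It was 9.15 in line Q007 and 8.48 in line Q213, the pair of lines highest for AT1G47400, against 7.27 in R034 and 7.20 in Q072, the pair lowest. Its r was 0.82 in Q lines and 0.65 in R lines. AT3G56360, also on that list and of unknown function, had an r of 0.62 and ran from 7.52 to 10.09 with a median of 9.32. It was 10.09 in Q007 and 9.50 in Q213, against 8.86 in R034 and 8.29 in Q072. AT1G12030, again from that list, had an r of 0.47 at a low signal, 4.20 ± 0.169 (SD), which lies where RMA compresses values.

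Of the 15 positive genes 3 encode GARP-type transcription factors of a family known for nitrate and phosphate responses. AT1G68670 had an r of 0.70 and a signal from 3.20 to 5.23 log2, AT4G37180 an r of 0.64 and a signal from 4.63 to 8.00, and AT1G25550 an r of 0.53 and a signal from 4.05 to 5.25. AT1G68670 and AT1G25550 averaged 4.16 and 4.58 log2, where RMA compresses values. Of the 25 correlated genes 21 averaged at least 5 log2. AT4G01910 (4.31) and AT3G49160 (4.95) were the other dim ones. The aspartyl protease-like gene AT5G19120 had an r of 0.69 and the widest spread of the group, 6.52 ± 0.985 (SD), from 4.93 to 9.04. In AT5G19120 the lines with most AT1G47400 differed from each other. It was 8.46 in Q213 and 6.54 in Q007, against 5.77 in R034 and 5.48 in Q072.

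The remaining positive genes had r between 0.51 and 0.58. They were AT3G07350, AT3G01350, AT1G17830, AT3G17770, AT2G22080, the lipid-binding protein gene CP5, AT4G02720, the dehydrin gene COR47, which is known for its response to cold and drought, and AT4G01910. The 15 genes lay on all 5 chromosomes. Between themselves they correlated with a median r of 0.48 (range 0.18 to 0.86), so they did not all follow one another closely.

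The 10 named genes of lowest r ran against AT1G47400. AT3G49160, a gene of the pyruvate kinase family, had the lowest r of the named genes, -0.71. Its signal was 4.05 log2 in Q213 and 3.90 in Q007, against 5.39 in R034 and 6.55 in Q072, with a full range from 3.62 to 6.65. AT5G51010, which encodes a rubredoxin-like protein, had an r of -0.65 and was 7.50 in Q213 and 7.09 in Q007, against 8.05 in R034 and 8.32 in Q072. ARPN, the gene of the copper protein plantacyanin, had an r of -0.57 and ran from 5.25 to 8.70. SAPX, which encodes the stromal ascorbate peroxidase, a heme enzyme, had an r of -0.54 and ran from 7.45 to 8.65.

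AAH, the gene of allantoate amidohydrolase, which releases nitrogen from purine breakdown products, had an r of -0.59 and a signal of 9.07 ± 0.246 (SD). AT4G25030 had an r of -0.70, and AT2G36885, AT1G49010, AT2G38370 and AT1G68650 had r between -0.60 and -0.57. Pairs among the 10 negative genes had a median r of 0.53.

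**Figure D3:**
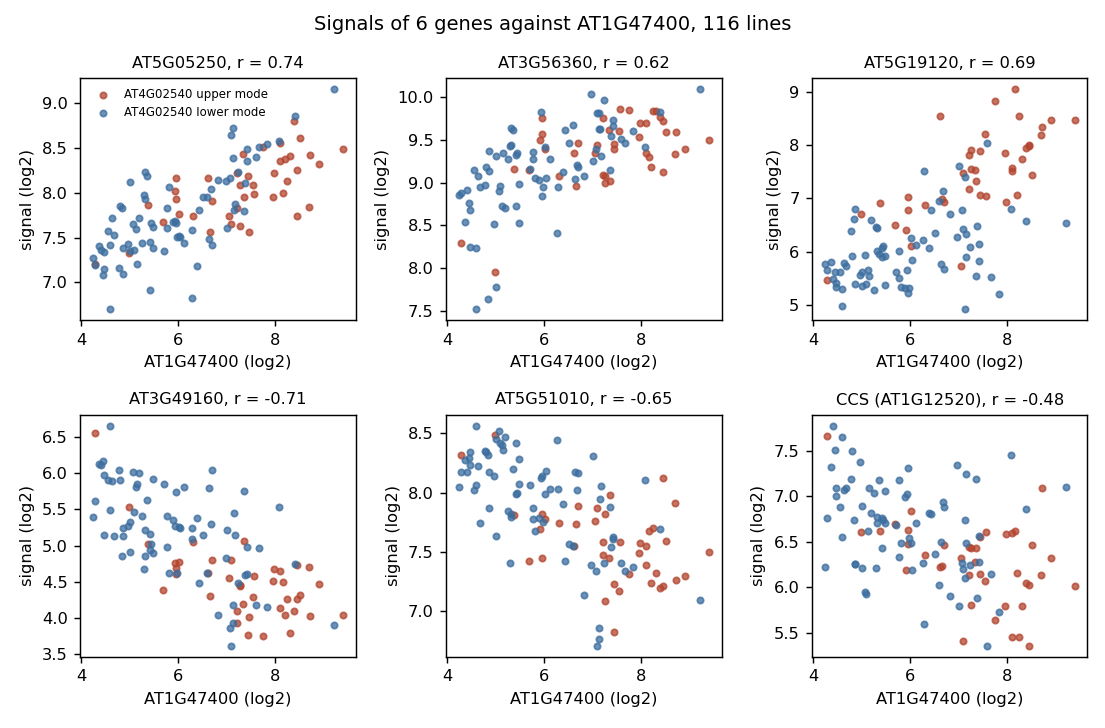
Each panel plots the signal of 1 gene against that of AT1G47400 (both log2) in 116 lines, coloured by the mode of AT4G02540. AT5G05250, AT3G56360 and AT5G19120 climb with AT1G47400 and AT3G49160, AT5G51010 and CCS decline; in AT5G05250 both colours follow 1 band, while in AT5G19120 the upper mode lines sit higher, at a mean of 7.46 against 6.01.

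The likeness was also present within each mode of AT4G02540, but not equally for all genes. AT5G05250 had an r of 0.67 in the 41 upper mode lines and 0.74 in the 75 lower mode lines, and AT3G56360 had 0.55 and 0.63. AT1G68670 had 0.69 and 0.51, AT5G19120 had 0.72 and 0.42, and AT4G37180 had 0.63 and 0.37. AT4G01910 had 0.32 and 0.06. In the negative group AT3G49160 had -0.65 and -0.60, AT4G25030 had -0.62 and -0.60, and SAPX had -0.55 and -0.53. After the marker and the letter were taken out, r ranged from 0.19 to 0.71 over the 15 positive genes and from -0.63 to -0.42 over the 10 negative genes. AT5G05250 kept 0.71 and AT3G49160 kept -0.61.

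The same marker had unequal weight in these genes. It accounted for 69.3% of the variance of AT4G01910 and 44.3% of that of AT4G02720. By locus number these genes lie on either side of the marker on chromosome 4, and the part of linkage was not tested. For AT4G37180, on the same chromosome, it accounted for 47.1%. It accounted for 49.3% of AT5G19120, 42.3% of AT1G17830 and 40.3% of AT1G68670, all on other chromosomes. For AT5G05250 and AT3G56360 it accounted for 9.91% and 5.93%, and for SAPX 2.99%. AT5G19120 averaged 7.46 ± 0.808 log2 in upper mode lines and 6.01 ± 0.635 in lower mode lines (SD, n = 41 and 75), and AT4G37180 averaged 7.25 ± 0.476 and 6.27 ± 0.504. AT3G49160 averaged 4.49 ± 0.508 in upper mode lines and 5.21 ± 0.633 in lower mode lines, a difference of -0.71 ± 0.114 (SE). At this marker, with adjustment over all probe sets, 15 of the 15 positive genes were called higher and 9 of the 10 negative genes lower in upper mode lines, SAPX being the exception. Over all probe sets 17.3% were called, 7.54% higher and 9.77% lower, and since the genes were chosen for following AT1G47400, nothing is read from their count. AT4G02540 was the strongest of all 124 markers for 12 of the positive and 6 of the negative genes. The matching share over all probe sets is not given here. The marker was chosen for AT1G47400 and the genes for following it, so nothing is read from this count either.

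**Figure D4:**
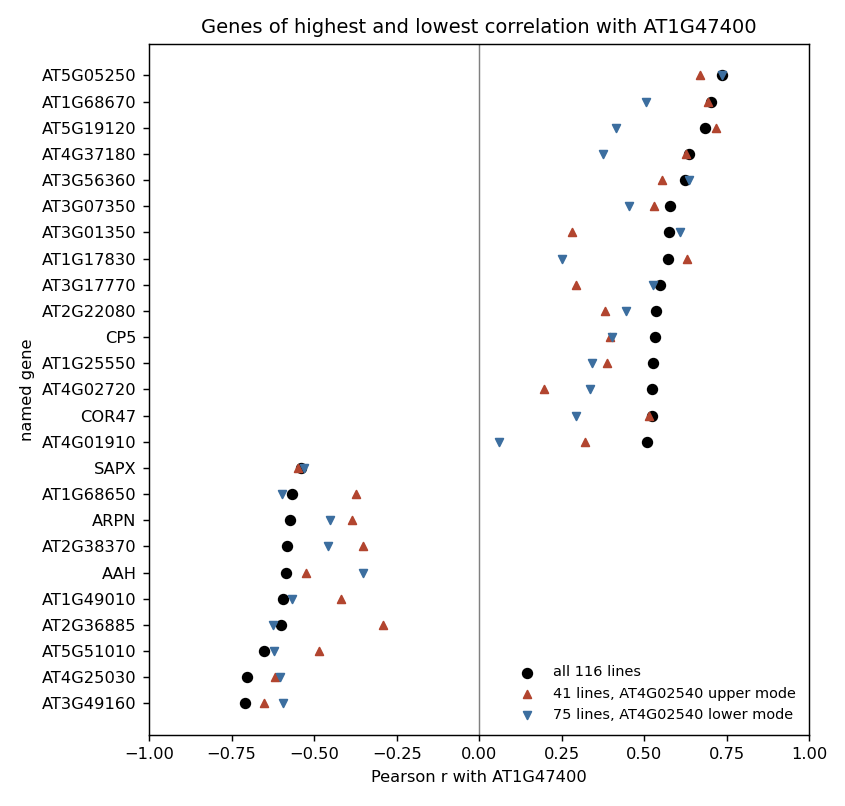
Pearson r with AT1G47400 for the 15 named genes of highest and the 10 of lowest r, in all 116 lines (black), in the 41 lines with the upper mode of AT4G02540 and in the 75 with its lower mode. AT5G05250 has 0.74 in all lines, 0.67 and 0.74 within modes, whereas AT4G01910 has 0.51 in all lines, 0.32 and 0.06 within modes.

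Single lines departed from their mode. Line Q007 had the lower mode of AT4G02540 and yet the next to highest AT1G47400 signal (9.23). Its AT5G05250 signal (9.15) was the highest of all lines, while its AT5G19120 signal (6.54) was close to the mean of all lines. Line Q072 had the upper mode and the next to lowest AT1G47400 signal (4.28), with AT5G05250 at 7.20, AT5G19120 at 5.48 and AT3G49160 at 6.55.

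The wider iron pathway was examined through a list of 79 other iron and metal genes, of which 20 had a named probe set. Apart from AT5G05250 and AT3G56360, their r with AT1G47400 lay between -0.48 and 0.47. The median absolute r of the 20, with AT5G05250 and AT3G56360 included, was 0.152, against 0.127 over all probe sets. Of the 20, 10 lay above and 10 below 0. By mode of AT4G02540, 4 were called higher and 3 lower in upper mode lines and 13 were not called (limma, adjusted over all probe sets at that marker). That is 35%, against 17.3% of all probe sets, and nothing is read from this share. The called genes included AT5G05250 and AT3G56360, already chosen by r, and the marker itself was chosen for AT1G47400. Their median difference was 0.0047 log2 and their median absolute difference 0.069, against -0.0066 and 0.039 over all probe sets.

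Among the regulators, PYE, a bHLH repressor of iron-transport genes that is itself induced by iron shortage, had an r of -0.38. It averaged 8.38 ± 0.28 log2 in upper mode lines and 8.59 ± 0.318 in lower mode lines (SD), a difference of -0.19 ± 0.0575 (SE; limma, adjusted p = 0.0106). BHLH115, a factor of the group that BRUTUS targets, was higher in upper mode lines by 0.15 ± 0.0385 (adjusted p = 0.0029), with an r of 0.23. The other members of that group, BHLH34, BHLH104 and ILR3, differed by -0.08, 0.16 and -0.03 and were not called (adjusted p of 0.0505, 0.445 and 0.408). BHLH104 (AT4G14410) was itself a marker gene, with its upper mode in 59 lines and its lower mode in 57. Its SD over all lines was 0.641, and its difference at AT4G02540 had an SE of 0.124, against 0.0385 for BHLH115. With BHLH104 as the marker, AT1G47400 had an effect of 0.03 ± 0.249 log2 (SE; limma, adjusted p = 0.976) and was not called. BHLH34 was called lower under 4 of the alternatives, with adjusted p from 0.0171 with RNA quality as a covariate to 0.047 on rank scores. BHLH101, a direct target of these factors that iron shortage induces strongly in leaves and roots, stood at 3.69 ± 0.11 with an r of 0.07 and a difference of 0.01. URI, a bHLH factor of the iron response, and BTSL1 and BTSL2, relatives of BRUTUS, had r between -0.14 and -0.12 and were not called. BTSL1 and BTSL2 were dim, at 4.34 ± 0.182 and 4.14 ± 0.174.

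Of the 4 measured genes listed for their response to iron deficiency in other tissues, all were called, in unlike directions, against 17.3% of all probe sets. The list was drawn up with earlier results of these data known, so nothing is read from that count. AT5G05250 was higher in upper mode lines by 0.31 ± 0.0864 log2 (SE; limma, adjusted p = 0.00595), AT1G12030 by 0.11 ± 0.0317 (adjusted p = 0.0113) and AT3G56360 by 0.24 ± 0.0899 (adjusted p = 0.0468). AT3G56360 also had an r of -0.45 with the 3' minus 5' difference, and its call was lost with that difference as a covariate. AT3G07720, a kelch-repeat gene, was lower by -0.14 ± 0.0339 (adjusted p = 0.0017), with an r of -0.35. Since AT5G05250 and AT3G56360 are also among the genes of highest r, their direction here is no separate evidence.

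CCS, the chaperone that delivers copper to superoxide dismutase, had an r of -0.48. It ran from 5.36 to 7.77 log2 over the lines and averaged 6.27 ± 0.46 in upper mode lines and 6.67 ± 0.514 in lower mode lines (SD), a difference of -0.38 ± 0.0941 (SE; limma, adjusted p = 0.00174). The coumarin genes AT3G13610 and AT3G12900 and the beta-glucosidase gene BGLU42, which act in root iron uptake, had r between -0.16 and 0.07 and were not called. Neither were the mitochondrial iron carrier genes MIT1 and MIT2 (r of 0.04 and 0.13) or the vacuolar metal transporter gene MTP8 (r of 0.02). The ferritin, VIT1, OPT3 and nicotianamine genes of the list had no named probe set and were not analysed here.

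**Figure D5:**
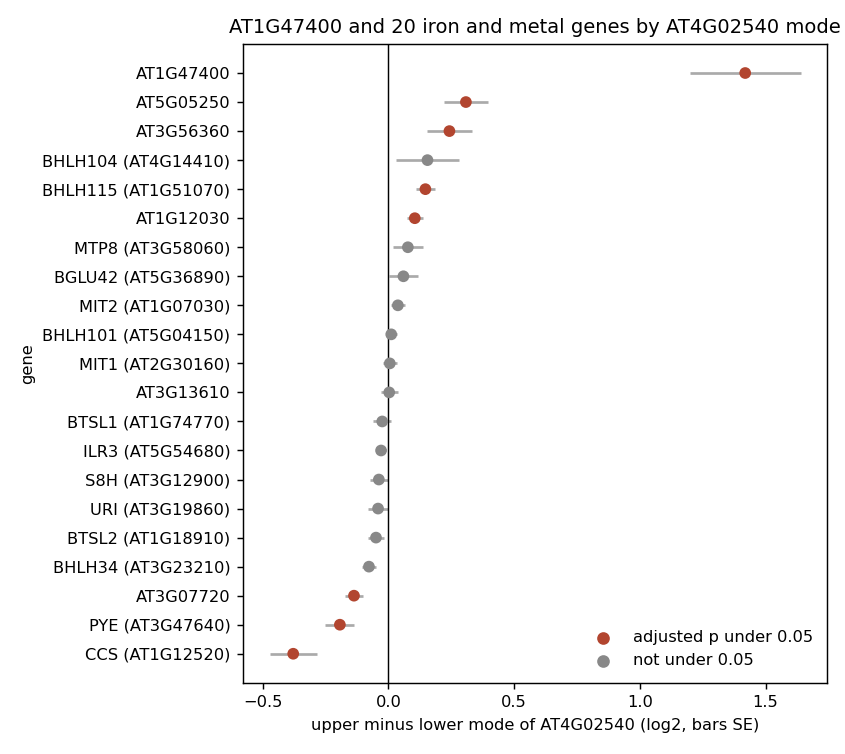
Upper minus lower mode difference at AT4G02540 (log2, bars are SE) for AT1G47400 and 20 iron and metal genes; red points have an adjusted p under 0.05. AT1G47400 stands at 1.42, whereas the 20 genes lie between -0.38 for CCS and 0.31 for AT5G05250.

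Of 4 measures of the arrays, principal components 1 and 2 moved with AT1G47400, and RNA quality and the array median did not pass the test. Over 116 lines its r was -0.32 with principal component 1 of the arrays (Spearman rho -0.33) and 0.37 with component 2 (rho 0.37). Permutation tests gave adjusted p of 0.001 and 0.00024 for r and 0.00062 and 0.00024 for rho, over 4 measures. Without the 2 lines farthest from the median of each component r was -0.35 and 0.35. With the 3' minus 5' difference r was -0.13 (rho -0.12, adjusted p of 0.159 and 0.193; r of -0.07 without 2 lines). With the array median r was -0.14 (rho -0.14, adjusted p of 0.159 and 0.167; r of -0.11 without 2 lines). The components also differed by mode of AT4G02540. Component 1 averaged -6.78 ± 14.4 in upper mode lines and 3.70 ± 11.7 in lower mode lines (SD, n = 41 and 75). Component 2 averaged 6.26 ± 9.26 and -3.42 ± 8.96. The part of the marker in these correlations was not tested. Within Q and R lines no further batch was recorded in the labels.

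Of the tissue genes, PAP85 and OLEO3 had r of -0.32 and -0.24, BAN and DFR had 0.26 and 0.08, and AGL62 and IKU2 had -0.18 and -0.17. In upper mode lines PAP85 was lower by -0.08 ± 0.0187 log2 (SE; limma, adjusted p = 0.000385) and OLEO3 by -0.09 ± 0.0185 (adjusted p = 0.00016). The other tissue genes measured were not called. The part of seed stage or tissue makeup in the AT1G47400 values was not tested.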

How the data were processed

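Values were log2 signals as deposited. Per the submitters' processing notes the authors had used RMA. The version of RMA and any genome build were not given in the sources used here. This method sets arrays to a common distribution and compresses dim signals. Of 22810 probe sets 64 array controls were left out. Genes came from the platform annotation, joined by Entrez ID to a RefSeq table (TAIR10.1) used for names and gene order only: 13513 probe sets had 1 gene, 503 had several and 8730 had none. Where a gene had several probe sets, the one of highest mean was used.

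Lines were grouped by letter. Tests used limma 3.58.1 (lmFit, eBayes) in R 4.3.3 with Benjamini-Hochberg adjustment and a threshold of 0.05, fitted on all 22746 probe sets. Markers were nuclear genes fitted better by a pair of modes than by 1 (BIC lower by 10 or more), with 4 SD and 1 log2 or more between the modes and 0.2 or more of lines in each. The posterior of the upper mode was the score, and a probe set was never tested against its own gene. The model for a further marker left out markers correlated with AT4G02540 at 0.9 or more. RNA quality was the mean 3' minus 5' difference of 3 control pairs. Permutation tests were two-sided with 100000 draws. The scripts were tested on simulated data. Python 3.11.15, numpy 2.4.6, pandas 2.3.3, scipy 1.17.1 and matplotlib 3.10.9 were used.

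Named genes were the 15 of highest and 10 of lowest r and every measured iron list gene. The leading and nearest markers and the 5 extreme lines at each end were also named. AT1G22340, AT1G49750, AT1G50290, the other chromosome 4 markers and the lines set side by side were chosen after their values were seen. AT1G47400, the correlated genes and the lists were chosen with earlier results of these data known. Alternatives were median scaling, a filter at a mean of 5 log2, 10 principal components, RNA quality, array weights, rank scores, hard mode calls, no letter, and leaving out the 2 lines farthest from the median. P-values measure the spread between lines, since each line had 1 array.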

Additional observations from a re-analysis of the deposited data

How the results depend on the processing

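The marker effects of AT1G47400 were refitted under 9 alternatives. The AT4G02540 effect stayed called in 8, between 1.40 and 1.43 log2 in 7 of them and 1.03 score units on rank scores, and AT4G02540 stayed the strongest marker in those 8; with 10 principal components it was 0.0689 and not called. The AT1G23960 effect stayed called in 7, and was not called with 10 principal components (0.621) or rank scores (0.529). Hard mode calls and the mean filter left the effects at 1.42 and 0.718 log2, as in the main fit. These alternatives could not move them, since no line had an ambiguous mode and the filter only removed other probe sets. Their agreement is no separate evidence. Of the 20 iron and metal genes 7 were called at AT4G02540, 6 to 8 under 8 alternatives and 0 with 10 principal components; the AT3G56360 call was also lost with RNA quality, with array weights and without the letter, and BHLH34 was gained with the mean filter, RNA quality, rank scores and without the letter. The Q minus R difference, not called, was -0.0023 with array weights, -0.0145 on rank scores and -0.0875 without the 2 extreme lines, and 0.49 with 10 principal components (adjusted p = 0.37). With RNA quality as a covariate 1 of the 20 genes differed between Q and R lines, URI, by 0.11. The interaction was called under none of 8 alternatives. Probe sets with an absolute r of at least 0.5 numbered 18 after 10 principal components were removed, 14 of them among the 92, and 81 to 104 otherwise; with the components removed 4 of the 15 highest and 6 of the 10 lowest genes kept their place, and absolute r over these 25 genes ran from 0.0007 to 0.73, highest in AT5G05250. No paired analysis was possible because line numbers name separate lines and pair nothing between Q and R. Dim genes, those under 5 log2, have compressed differences, and the number of arrays limits the precision.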
